A study of Homo sapiens with 16 samples.

Results

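The CDC2-like kinases CLK1, CLK2, CLK3 and CLK4 and the SR protein kinases SRPK1 and SRPK2 were followed after depletion of the RNA-binding protein HNRNPH1. The members were chosen by name: all rows of the deposited transcript tables with 1 of these 6 symbols, which gave 6 of 61906 genes and 89 listed transcripts in each table. Both lines used are established and human: HEK-293T, a kidney line transformed with adenovirus DNA that expresses SV40 large T antigen, and HT-1080, a fibrosarcoma line. Cells received 20 nM of siHNRNPH1, which targets HNRNPH1, or of the control siNegative, and RNA was taken 48 h later. Each of the 4 groups of line and siRNA had 3 short-read RNA-seq libraries, from separate biological replicates per the labels, and 1 full-length cDNA (IsoSeq) pool of replicates. All groups, controls included, had been transfected, and the labels describe no untransfected group.

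Both kinase families phosphorylate the serine- and arginine-rich tails of SR proteins, a group of splicing factors that bind exons and recruit the spliceosome. SRPK1 and SRPK2 act mainly in the cytoplasm, where their phosphorylation lets TNPO3 carry SR proteins into the nucleus, and the CLK kinases act in the nucleus, where further phosphorylation releases SR proteins from nuclear speckles. The CLK genes are themselves known for regulated splicing: skipping of cassette exon 4 of CLK1 shifts the reading frame and removes the kinase domain, and the introns on either side of that exon are known to be kept in polyadenylated nuclear RNA. HNRNPH1 binds G-rich RNA and changes the use of nearby splice sites and polyadenylation sites.

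Libraries of HEK-293T summed to 107.7 to 121.0 M (mega) expected counts and those of HT-1080 to 27.3 to 32.7 M. Levels are given as CPM, the expected count of a gene divided by the library total in M. HNRNPH1 itself stood at 1107.2, 1104.6 and 1120.9 CPM in HEK-293T with siNegative and at 234.1, 376.2 and 394.3 CPM with siHNRNPH1. In HT-1080 it stood at 634.6, 605.8 and 617.2 CPM with siNegative and at 231.5, 231.0 and 228.5 CPM with siHNRNPH1, so the groups did not overlap in either line. Its paralog HNRNPH2 was also lower: it stood at 203.2, 207.5 and 203.2 CPM with siNegative and at 39.5, 65.5 and 65.4 CPM with siHNRNPH1 in HEK-293T (log2 fold change -1.88, SE 0.20, edgeR adjusted p = 0.00875). In HT-1080, HNRNPH2 stood at 112.2, 112.3 and 113.3 CPM and then at 65.5, 65.1 and 58.9 CPM (-0.90, SE 0.05, edgeR adjusted p = 3.57e-07). The part of HNRNPH2 in the results cannot be told apart from that of HNRNPH1. Of the markers, NEFM (251.5 to 490.2 CPM in HEK-293T, at most 0.0330 in HT-1080) and CD44 (at most 2.76 in HEK-293T, at least 1835.5 in HT-1080) separated the lines as labelled. PAX2 was near 0 in both lines, at 1.25 to 2.20 CPM in HEK-293T. Replicate 1 of HEK-293T siHNRNPH1 stood apart from its group: over 14416 genes its log2 CPM correlated with replicates 2 and 3 at Pearson r of 0.929 and 0.922, against 0.998 between those replicates. Results for HEK-293T are therefore given with and without that library. Replicate 2 of HT-1080 siNegative departed less, with r of 0.995 to the other replicates of its group.

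Per kb of RNA, SRPK1 was the highest of the 6 kinases in both lines. For this order, CPM was divided by the median exonic length of the IsoSeq models of each gene, 2462 nt for CLK4 to 3790 nt for SRPK1, since levels can be compared between genes only per length. In HEK-293T siNegative libraries, the means (± SD, n = 3) were 102.3 ± 1.43 CPM per kb for SRPK1, 30.7 ± 0.970 for CLK2, 20.1 ± 0.368 for CLK1, 15.4 ± 0.320 for SRPK2, 14.2 ± 0.446 for CLK3 and 12 ± 0.513 for CLK4. No 2 neighbours in that order overlapped between libraries. The SDs do not cover the error of the lengths, as models ran from 584 to 3363 nt for CLK2 and from 1539 to 4762 nt for CLK1. The order of close neighbours is therefore not settled in either line. In HT-1080 siNegative libraries, SRPK1 stood at 34.5 ± 0.924 CPM per kb (SD, n = 3), followed by CLK3 at 22.9 ± 1.49, CLK1 at 18.8 ± 0.381, CLK2 at 17.4 ± 0.415, SRPK2 at 14.3 ± 0.886 and CLK4 at 7.44 ± 0.551, again with no overlap between neighbours. With siHNRNPH1, CLK2 moved from the second place to the fifth in HEK-293T (13.8 ± 0.245 CPM per kb, SD, n = 3) and from the fourth to the fifth in HT-1080 (12.8 ± 0.130). In the HEK-293T siHNRNPH1 group, CLK3 (20.4 ± 4.25), CLK1 (19.9 ± 3.16), SRPK2 (14.9 ± 5.36) and CLK2 followed SRPK1, and each overlapped its neighbour in that sequence.

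CLK2 was the kinase that changed in both lines with all 6 libraries of each. It was below the siNegative level in every siHNRNPH1 library, and fell more in HEK-293T than in HT-1080. SRPK1 fell in HT-1080. With all 6 libraries of a line, no call at the gene level was made for CLK1, CLK3, CLK4 or SRPK2 in either line. CLK3, SRPK1 and SRPK2 passed in HEK-293T, all higher, once the library that stood apart was left out. CLK3 and CLK4 passed in HT-1080 without 1 of its controls, as given with each gene. The gene-level test was edgeR's quasi-likelihood test, two-sided, on 6 libraries per line, with p-values Benjamini-Hochberg (BH) adjusted over all genes tested and a threshold of 0.05. In bulk RNA, a change in RNA per cell and a change in the mix of cells cannot be told apart.

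**Figure D1:**
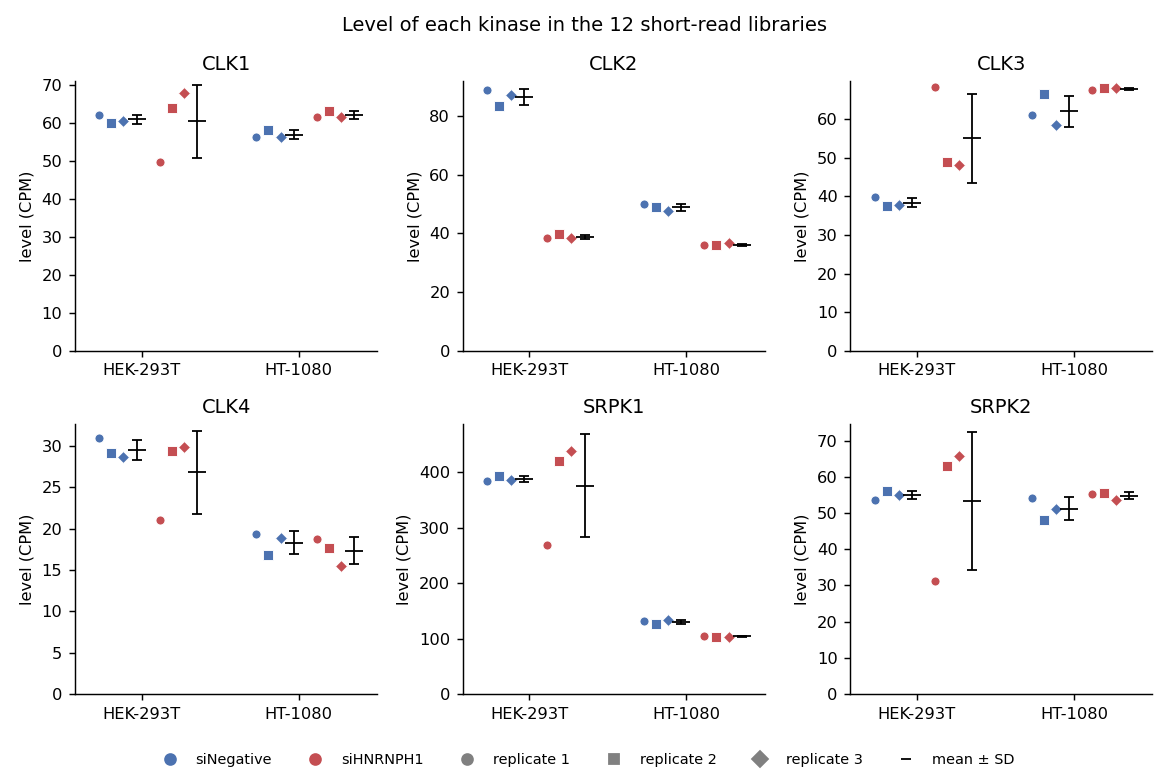
Level of each kinase (CPM, linear axis from 0) in each of the 12 short-read libraries, by line and siRNA, with marker shape for the replicate number and black bars for mean ± SD (n = 3). CLK2 lies at 83.6 to 89.0 CPM in HEK-293T siNegative libraries and at 38.5 to 39.7 with siHNRNPH1, and replicate 1 of HEK-293T siHNRNPH1 lies apart from replicates 2 and 3 for the other 5 kinases.

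CLK2 (ENSG00000176444.19), which among the CLK kinases is also known as an AKT substrate, stood at 89.0, 83.6 and 87.2 CPM in the HEK-293T siNegative libraries. With siHNRNPH1 it stood at 38.5, 39.7 and 38.5 CPM. This was a log2 fold change of -1.18 (SE 0.11, edgeR adjusted p = 0.00611). Unlike the other kinases, CLK2 had nearly the same level in the replicate that stood apart as in the others, and without that replicate the log2 fold change was -1.20 (SE 0.04, edgeR adjusted p = 1.87e-17). The call was lost when 1 control was left out: without siNegative replicate 1, 2 or 3 the log2 fold change was -1.17, -1.20 and -1.18, and the edgeR adjusted p was 0.0656, 0.0685 and 0.0668. In HT-1080, CLK2 stood at 50.1, 48.9 and 47.8 CPM with siNegative and at 35.9, 36.2 and 36.6 CPM with siHNRNPH1. The groups did not overlap, and the log2 fold change was -0.50 (SE 0.05, edgeR adjusted p = 9.40e-06).

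The fall of CLK2 was 0.61 log2 units smaller in HT-1080 than in HEK-293T (SE 0.11), by the interaction of line and siRNA in edgeR over all 12 libraries (adjusted p = 0.00338). Of 21276 genes in that test, 4036 (19.0%) passed, and CLK2 was the 1 kinase of 6 that did. Without replicate 1 of HEK-293T siHNRNPH1, the CLK2 difference was 0.65 (adjusted p = 1.74e-07), with 49.0% of all genes called. The siHNRNPH1 levels were close, at 38.9 ± 0.690 CPM in HEK-293T and 36.2 ± 0.367 CPM in HT-1080 (SD, n = 3), whereas the siNegative levels were 86.6 ± 2.73 and 48.9 ± 1.17 CPM.

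Of the 6 kinases, 1 passed the gene-level test in the 6 HEK-293T libraries, where 10.0% of the 19966 genes tested passed (5.12% higher and 4.88% lower). In HT-1080, 2 of 6 passed, CLK2 and SRPK1, both lower, where 65.3% of 16145 genes passed (32.7% higher and 32.6% lower). Leaving out replicate 1 of HEK-293T siHNRNPH1, 4 of 6 passed (CLK2 lower, CLK3, SRPK1 and SRPK2 higher), where 61.8% of 20329 genes passed (30.5% higher and 31.3% lower). The share of kinases called was close to or below the share of all genes in each of the last 2 fits.

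**Figure D2:**
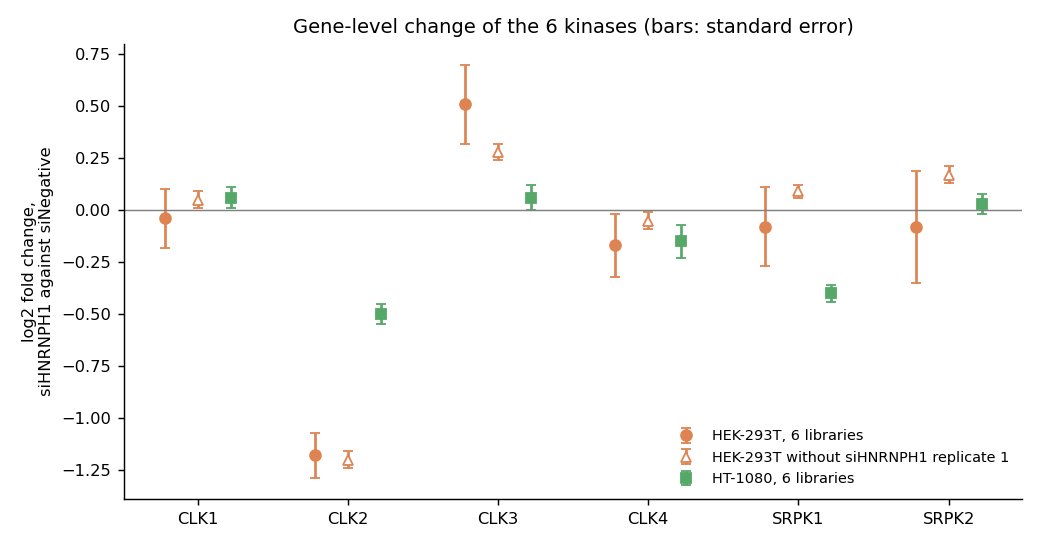
Log2 fold change of each kinase gene, siHNRNPH1 against siNegative, with its standard error, for the 6 libraries of each line and for HEK-293T without siHNRNPH1 replicate 1. CLK2 lies at -1.18 and -1.20 in HEK-293T and at -0.50 in HT-1080, and SRPK1 lies at -0.40 in HT-1080.

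CLK1 (ENSG00000013441.17), the member whose exon 4 skipping has been studied most, stood at 62.2, 60.1 and 60.6 CPM in HEK-293T siNegative libraries and at 49.7, 63.9 and 68.0 CPM with siHNRNPH1. Replicate 1 lay below the controls and replicates 2 and 3 above them. This gave a log2 fold change of -0.04 (SE 0.14, edgeR adjusted p = 0.873), and 0.05 (SE 0.04, adjusted p = 0.206) without replicate 1. In HT-1080 it stood at 56.3, 58.3 and 56.4 CPM with siNegative and at 61.5, 63.3 and 61.7 CPM with siHNRNPH1. These groups did not overlap in CPM, but with TMM scaling (a trimmed mean of the log ratios between libraries) the log2 fold change was 0.06 (SE 0.05, edgeR adjusted p = 0.285). Scaled by library size alone it was 0.13, with an adjusted p of 0.0292.

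CLK3 (ENSG00000179335.20) stood at 39.7, 37.4 and 37.8 CPM in HEK-293T siNegative libraries and at 68.3, 48.8 and 48.0 CPM with siHNRNPH1. All 3 siHNRNPH1 libraries were above all controls, with replicate 1 farthest from them, and the log2 fold change was 0.51 (SE 0.19, edgeR adjusted p = 0.167). Without replicate 1 it was 0.28 (SE 0.04, adjusted p = 1.15e-06), a smaller change with a smaller error. With the spread shared over all 12 libraries CLK3 also passed in HEK-293T (0.57, edgeR adjusted p = 0.0264). In HT-1080, CLK3 stood at 61.1, 66.4 and 58.4 CPM with siNegative and at 67.5, 68.0 and 68.0 CPM with siHNRNPH1. The log2 fold change was 0.06 (SE 0.06, edgeR adjusted p = 0.358), and 0.12 (adjusted p = 0.00592) without replicate 2 of siNegative, the control nearest to the siHNRNPH1 libraries. Between the lines, CLK3 differed by -0.52 (SE 0.22, adjusted p = 0.135), and -0.27 (adjusted p = 0.00437) without the HEK-293T replicate that stood apart.

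CLK4 (ENSG00000113240.14), the closest paralog of CLK1, stood at 31.0, 29.1 and 28.6 CPM in HEK-293T siNegative libraries and at 21, 29.4 and 29.9 CPM with siHNRNPH1. Only replicate 1 was below the controls. CLK4 had a log2 fold change of -0.17 (SE 0.15, edgeR adjusted p = 0.508), and -0.05 (SE 0.04, adjusted p = 0.327) without it. In HT-1080, CLK4 stood at 19.3, 16.8 and 18.8 CPM with siNegative and at 18.7, 17.6 and 15.5 CPM with siHNRNPH1, with overlapping groups. The log2 fold change was -0.15 (SE 0.08, edgeR adjusted p = 0.145), and -0.21 (adjusted p = 0.00957) without replicate 2 of siNegative, the lowest control.

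SRPK1 (ENSG00000096063.16), a cytoplasmic SR protein kinase, stood at 130.9, 127.0 and 134.0 CPM in HT-1080 siNegative libraries and at 104.6, 103.6 and 103.0 CPM with siHNRNPH1. The groups did not overlap, and the log2 fold change was -0.40 (SE 0.04, edgeR adjusted p = 1.57e-05). In HEK-293T it stood at 383.5, 393.8 and 385.7 CPM with siNegative and at 269.4, 419.7 and 438.7 CPM with siHNRNPH1. Replicate 1 was below every control and replicates 2 and 3 above every control. SRPK1 had a log2 fold change of -0.08 (SE 0.19, edgeR adjusted p = 0.824) with that replicate and 0.09 (SE 0.03, adjusted p = 0.010) without it. Between the lines, SRPK1 differed by -0.39 (SE 0.18, adjusted p = 0.155), and -0.54 (adjusted p = 5.19e-07) without that replicate.

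SRPK2 (ENSG00000135250.17), the paralog of SRPK1, stood at 53.7, 56.0 and 55 CPM in HEK-293T siNegative libraries and at 31.3, 63.0 and 65.8 CPM with siHNRNPH1. The pattern of the replicates was that of SRPK1, with replicate 1 below and the others above the controls. The log2 fold change was -0.08 (SE 0.27, edgeR adjusted p = 0.879) with replicate 1 and 0.17 (SE 0.04, adjusted p = 2.88e-04) without it. In HT-1080 it stood at 54.3, 48.0 and 51.2 CPM with siNegative and at 55.2, 55.5 and 53.6 CPM with siHNRNPH1, and the log2 fold change was 0.03 (SE 0.05, edgeR adjusted p = 0.627). Between the lines, SRPK2 differed by 0.05 (SE 0.27, adjusted p = 0.972), and -0.19 (adjusted p = 0.0290) without HEK-293T replicate 1.

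Transcript usage, meaning how the expected counts of a gene are divided among its transcripts, was next compared. Of the 89 transcripts, 17 held a mean share of at least 10% in any group. In HEK-293T, CLK2 changed usage, and in HT-1080, SRPK2 did. The test was limma's diffSplice after voom, which combines the transcripts of a gene into a Simes p, BH adjusted over all genes. In HEK-293T, 1 of 6 kinases passed, where 8.56% of 13018 genes passed, and in HT-1080, 1 of 6 passed, where 19.6% of 10752 genes passed. Shares are estimates, since RSEM divides reads among overlapping transcripts, and edgeR's diffSpliceDGE called 0 of the 6 in either line, with 0 at an unadjusted p under 0.05. The annotation's class of each transcript (coding, retained intron, target of nonsense-mediated decay) was not used here.

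CLK2 usage in HEK-293T had an adjusted Simes p of 4.29e-04 by limma diffSplice. ENST00000476983.5 held 21.4, 25.2 and 24.3% of CLK2 with siNegative and 50.7, 42.7 and 42.6% with siHNRNPH1. Its share was higher in all siHNRNPH1 libraries than in all controls, and its usage coefficient, the log2 fold change relative to the gene's other transcripts, was 1.69 (limma adjusted p = 3.21e-04, where 2.44% of 83021 transcripts passed). ENST00000361168.9 held 24.1, 21.6 and 21.7% with siNegative and 13, 6.60 and 5.91% with siHNRNPH1, a coefficient of -1.38 (limma adjusted p = 0.0114). Here replicate 1 fell least. ENST00000368361.9 went from 10.5, 10.8 and 8.78% to 3.14, 4.64 and 3.68%, without overlap, but did not pass the test (coefficient -1.18, limma adjusted p = 0.0723). ENST00000497188.1 held 31.2, 30.1 and 32.4% with siNegative and 28.5, 37.3 and 36.2% with siHNRNPH1, overlapping groups.

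The transcript whose share grew did not grow in level. ENST00000476983.5 stood at 20.4 ± 1.16 CPM with siNegative and 17.6 ± 1.67 CPM with siHNRNPH1 (SD, n = 3) in HEK-293T, whereas ENST00000361168.9 stood at 19.5 ± 1.76 and 3.29 ± 1.47 CPM. Of the difference of -47.7 CPM in CLK2 between the groups, 33.9% lay in ENST00000361168.9, 29.0% in ENST00000497188.1, 15.0% in ENST00000368361.9 and 5.9% in ENST00000476983.5. The siNegative mean was 5.92 times the siHNRNPH1 mean for ENST00000361168.9, 5.82 times for ENST00000368361.9, 2.04 times for ENST00000497188.1 and 1.16 times for ENST00000476983.5. Without replicate 1 of siHNRNPH1, the coefficients of ENST00000361168.9 and ENST00000368361.9 were -2.10 (limma adjusted p = 4.90e-09) and -1.40 (3.99e-05), and that of ENST00000476983.5 was 1.22 (2.51e-08). In that fit, 14.7% of 89589 transcripts passed. The call of ENST00000361168.9 was lost with any other single library left out (adjusted p up to 0.182), while that of CLK2 usage as a whole was kept with each of the 6 libraries left out (adjusted p at most 0.0278). On arcsine square root shares, limma kept CLK2 usage and ENST00000476983.5 (adjusted p = 0.032 and 0.0267) but not ENST00000361168.9 (0.0662). CLK2 usage did not pass by diffSpliceDGE (adjusted p = 0.718).

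In HT-1080, CLK2 usage did not pass (limma adjusted p = 0.241). ENST00000361168.9 held 26.4, 21.1 and 21.4% with siNegative and 14.9, 13.9 and 28.0% with siHNRNPH1, where replicate 3 was above the controls. ENST00000476983.5 held 22, 27.1 and 26.2% and then 30.7, 36.5 and 21.1%, with the same replicate below the controls. ENST00000368361.9 had lower shares in all siHNRNPH1 libraries than in all controls, as in HEK-293T, at 13.3, 14.0 and 11.3% and then 10.2, 6.66 and 7.70% (coefficient -0.73, limma adjusted p = 0.147). ENST00000497188.1 held 29.1, 24.7 and 29.6% and then 32.1, 30.4 and 31.1%, also without overlap (coefficient 0.26, limma adjusted p = 0.593). Its groups overlapped in HEK-293T. The difference in usage between the lines was not tested.

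**Figure D3:**
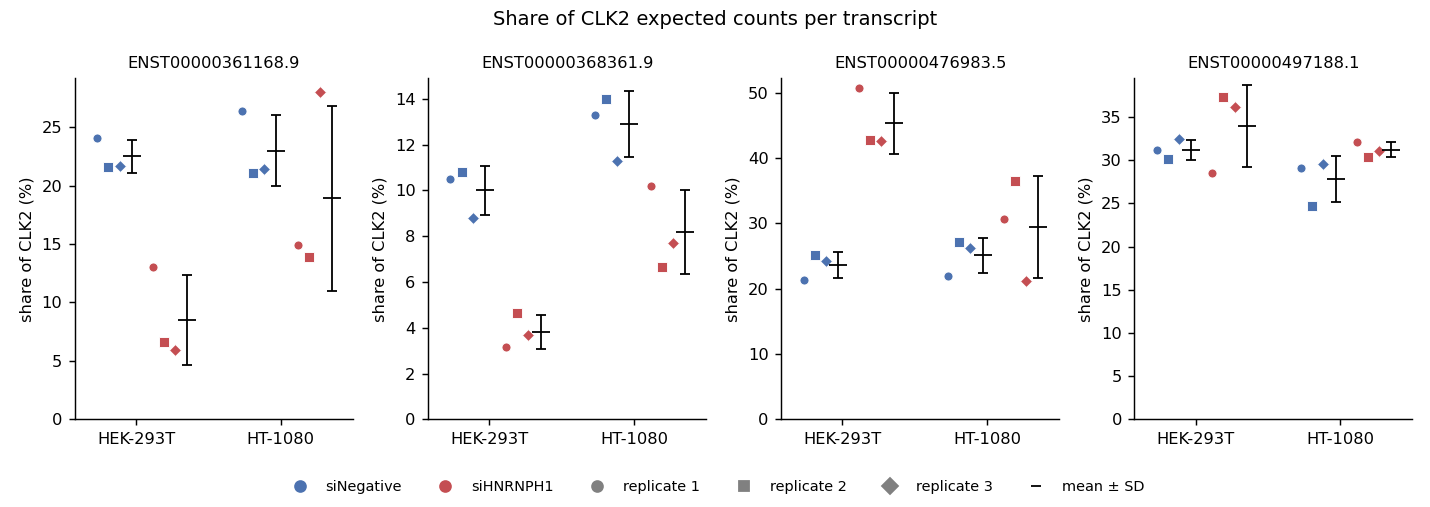
Share of CLK2 expected counts (%) in each of its 4 transcripts of at least 10%, per library, with black bars for mean ± SD (n = 3). In HEK-293T the share of ENST00000476983.5 lies at 21.4 to 25.2% with siNegative and 42.6 to 50.7% with siHNRNPH1, while in HT-1080 replicate 3 of siHNRNPH1 lies at 21.1%.

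SRPK2 usage passed in HT-1080 (limma adjusted p = 0.00134). Of 59727 transcripts tested there, 6.60% passed. ENST00000357311.7 held 14.4, 16.7 and 15.4% of SRPK2 with siNegative and 12.8, 5.79 and 7.29% with siHNRNPH1 (coefficient -1.02, limma adjusted p = 8.30e-04). ENST00000393651.8, the main transcript, held 78.9, 77.5 and 78.1% and then 79.7, 86.8 and 85.4% (coefficient 0.75, limma adjusted p = 0.00427). The call of ENST00000393651.8 was lost without siHNRNPH1 replicate 2 (0.42, limma adjusted p = 0.218) or replicate 3 (0.64, 0.102). In both transcripts, siHNRNPH1 replicate 1 lay nearest to the controls. In HEK-293T, ENST00000357311.7 held 11.6, 17.7 and 12.7% with siNegative and 7.68, 10.9 and 8.39% with siHNRNPH1, lower in all siHNRNPH1 libraries but not past the test (coefficient -0.63, limma adjusted p = 0.559). Without replicate 1 its coefficient was -0.58 (limma adjusted p = 0.0259), where 14.7% of 89589 transcripts passed. On arcsine square root shares, limma did not call SRPK2 in HT-1080 (adjusted p = 0.258).

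CLK3 usage in HT-1080 lay at the threshold (limma adjusted p = 0.0507), and 1 minor transcript passed, where 6.60% of 59727 transcripts passed. ENST00000562078.5, named here after its values were seen because it is under 10% of the gene, held 2.99, 2.58 and 2.52% with siNegative and 0.997, 1.51 and 0.842% with siHNRNPH1 (coefficient -1.24, limma adjusted p = 0.0188). That call was lost without siNegative replicate 1 or 3 (limma adjusted p = 0.124 and 0.0596), without siHNRNPH1 replicate 1 or 3 (0.0602 and 0.178) and on arcsine square root shares (0.0988). In HEK-293T it held 3.97, 3.03 and 3.30% and then 0.695, 1.41 and 1.17% (coefficient -1.52, limma adjusted p = 0.169). It passed without replicate 1 of siHNRNPH1 (-1.41, limma adjusted p = 0.00301), where 14.7% of 89589 transcripts passed. The groups did not overlap in either line. The main transcript, ENST00000395066.9, held 53.7 to 59.3% in HEK-293T controls and 61.3 to 70.1% with siHNRNPH1, against 71.7 to 73.0% and 72.6 to 74.8% in HT-1080.

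CLK1 was divided among several transcripts. ENST00000321356.9, ENST00000432425.5, ENST00000473565.5 and ENST00000461981.5 held 28.2 ± 2.45, 22.9 ± 2.70, 26.9 ± 0.744 and 14.9 ± 1.18% in HEK-293T controls (SD, n = 3) and 31.2 ± 2.56, 38.1 ± 0.573, 10.2 ± 0.638 and 12.7 ± 1.41% in HT-1080 controls. Usage did not pass in either line (limma adjusted p = 0.948 and 0.877). ENST00000409769.6 took 37.5% of CLK1 in replicate 1 of HEK-293T siHNRNPH1, against 0.474 to 5.78% in the other 5 HEK-293T libraries. Without that replicate it was lower with siHNRNPH1 (coefficient -2.46, limma adjusted p = 2.34e-05), where 14.7% of 89589 transcripts passed.

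Neither CLK4 nor SRPK1 passed the usage test in either line with all 6 libraries. The transcript with the largest share of CLK4 in HEK-293T controls was ENST00000316308.9, followed by ENST00000519583.5 at 18.3 ± 0.956% and ENST00000522136.5 at 13.4 ± 0.466% (SD, n = 3). ENST00000316308.9 held 46.0, 45.4 and 44.4% in HEK-293T controls and 80.4, 49.4 and 54.7% with siHNRNPH1, the highest value again in replicate 1. SRPK1 was carried mainly by ENST00000373825.7, which held 93.2 to 94.2% in HEK-293T controls and 95 to 98.3% with siHNRNPH1, but 93.5 to 94.5% and 90.9 to 92.9% in HT-1080. When replicate 1 of HEK-293T siHNRNPH1 was left out, all 6 kinases passed the usage test in HEK-293T (limma adjusted p of 0.0451 for SRPK2 and below for the others), where 39.5% of 13394 genes passed. Exact two-sided permutation tests of 36 shares (18 transcripts in 2 lines, 3 libraries against 3) cannot give a p below 0.1. Their smallest adjusted p was 0.225, so these exact tests cannot call a share.

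The IsoSeq pools show which forms of the CLK genes were present around cassette exon 4. Each file lists transcript models with no read counts, so every model counts once whatever its abundance, and with 1 pool per group there is no test. Intervals are exact Clopper-Pearson 95% intervals and cover counting error only. The cassette exon of CLK1 (chr2:200860125-200860215, minus strand) and that of CLK4 (chr5:178617344-178617434, minus strand) were 91 nt long, that of CLK2 (chr1:155268708-155268795, minus strand) 88 nt, and that of CLK3 (chr15:74622120-74622216, plus strand) 97 nt, in the coordinates of the files, for which the submitters' processing notes name GRCh38.p13. In each gene the exon was chosen as the skipped exon, followed by an exon of 67 nt, that was found in the most models. The 67 nt of the next exon was thus set by the choice and is not a result. The length of the cassette exon left a remainder of 1 after division by 3 in every gene. The exon before it was 229 nt in CLK1 and CLK2, 217 nt in CLK3 and 223 nt in CLK4.

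In CLK1, most HEK-293T models kept the introns around exon 4. Of the models whose state could be read there, 11 of 14 with siNegative (78.6%, interval 49.2 to 95.3%) and 13 of 17 with siHNRNPH1 (76.5%, 50.1 to 93.2%) retained intron 3, intron 4 or both. Both introns were retained in 10 and 11 of them. Exon 4 was spliced in with both introns removed in 1 and 3 models, and skipped in 2 and 1. A further 1 and 2 models had another form and are not in these shares, and they also retained intron 4. The HT-1080 pools held 4 models each whose state could be read, 1 of which retained an intron with siNegative and 2 with siHNRNPH1.

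In CLK4, of the models whose state could be read there, 0 of 16, 15, 8 and 5 (HEK-293T siNegative and siHNRNPH1, then HT-1080 siNegative and siHNRNPH1) retained either intron, with upper bounds of 20.6, 21.8, 36.9 and 52.2%. A further 2, 1, 1 and 0 models had another form, and 1 of those in HEK-293T siNegative retained intron 4 (chr5:178616949-178617343) in an exon that ran past exon 4. Exon 4 of CLK4 was spliced in in 5 of 16 models with siNegative (31.2%, interval 11 to 58.7%) and in 6 of 15 with siHNRNPH1 (40.0%, 16.3 to 67.7%) in HEK-293T. In HT-1080 it was spliced in in 4 of 8 (50%, 15.7 to 84.3%) and 3 of 5 (60.0%, 14.7 to 94.7%). The shares with siHNRNPH1 were higher in both lines, but the intervals covered each other. With each chain of junctions counted once, the HT-1080 share was 33.3% in both groups. One other intron of CLK4, of 86 nt near the 3′ end (chr5:178603758-178603843), named after its values were seen, was retained in 7 of 17 and 5 of 15 models in HEK-293T and in 0 of 8 and 0 of 5 in HT-1080.

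CLK2 and CLK3 held all forms in small numbers. CLK2 had 2 models in each HEK-293T pool, of which 1 had exon 4 and 1 retained both introns. In HT-1080, 7 of 11 CLK2 models retained an intron next to exon 4 with siNegative (63.6%, interval 30.8 to 89.1%) and 3 of 5 with siHNRNPH1 (60.0%, 14.7 to 94.7%). A further 3 siNegative models there had another form, and 1 of those retained intron 4. The number of CLK2 models in the HT-1080 pools was 14 with siNegative and 6 with siHNRNPH1, in pools of 72186 and 68078 models in all. CLK3 retained an intron next to exon 4 in 4 of 6 and 3 of 6 models in HEK-293T and in 3 of 6 and 3 of 7 in HT-1080. Over the 4 genes, 14 skipped exons and 29 retained introns were listed. Some of these introns overlap, as every junction lying inside an exon of another model was counted, those that skip exon 4 included. Of these 43 events, 0 were read in at least 10 models in every pool, the minimum set for comparing an event across the pools.

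**Figure D4:**
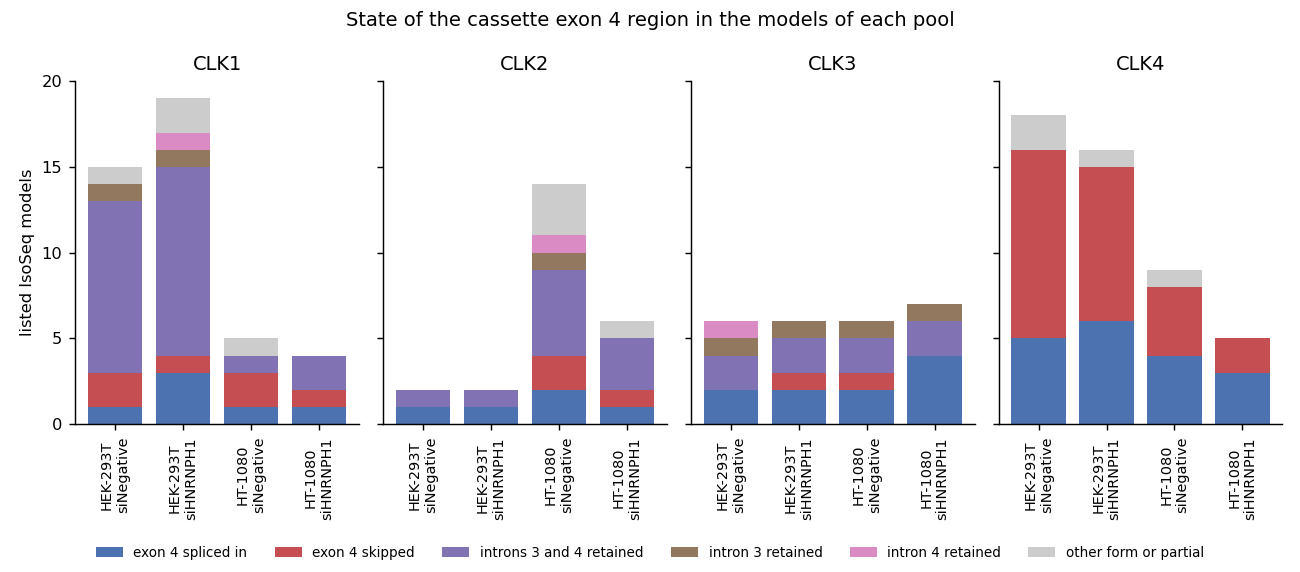
Number of listed IsoSeq models of each CLK gene in each pool, stacked by their state at cassette exon 4 (1 pool per group, each model counted once). CLK1 models in HEK-293T mostly retain introns 3 and 4 (10 of 15 and 11 of 19 models), whereas CLK4 models splice exon 4 in or skip it, apart from 2, 1, 1 and 0 models of another form.

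The substrates and partners of the kinases were read from the same gene-level fits, as lists chosen with earlier results of these data known. In the 6 HEK-293T libraries, edgeR called 0 of 14 SR proteins (4 at an unadjusted p under 0.05), 0 of 13 other kinases of splicing factors (1) and 0 of 9 phosphatases, import factors and partners (0), and DESeq2 also called 0 of each. In HT-1080, 11 of 13 SR protein genes tested passed, 10 lower and 1 higher, with a median log2 fold change of -0.28 beside 0.01 for all genes, where 65.3% of all genes passed (32.6% lower). Of the other kinases, 5 of 13 passed (4 lower and 1 higher), and of the phosphatases and partners 7 of 9 (4 lower and 3 higher), with medians of -0.04 and -0.06. Once replicate 1 of HEK-293T siHNRNPH1 was left out, 13 of 14 SR proteins passed, all lower, with a median of -0.15 beside 0.00 for all genes, where 61.8% of all genes passed (31.3% lower). Under that fit 11 of 13 other kinases passed (6 higher and 5 lower) and 5 of 9 phosphatases and partners (1 higher and 4 lower). Scaled by library size alone, the SR proteins in HEK-293T without replicate 1 had 12 calls, 1 higher and 11 lower, with a median of -0.09, and those in HT-1080 had 11, 2 higher and 9 lower, with a median of -0.22. With that scaling, the calls were 2 higher and 4 lower for the other kinases in HT-1080, and 3 higher and 3 lower for the phosphatases and partners in HEK-293T without replicate 1.

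Since no list gene passed in both lines with 6 libraries each, genes are named from HT-1080 and the HEK-293T fit without replicate 1. Of the 15063 genes tested in both fits, 31.7% passed in both in the same direction (16.7% lower in both) and 15.2% in opposite directions. Of the SR proteins, 10 passed in both in the same direction, all lower, and SRSF8 passed in opposite directions (-0.35 in HEK-293T and 0.91 in HT-1080). SRSF1, an activator of exon inclusion and a substrate of SRPK1, stood at 682.4, 685.8 and 662.8 CPM in HEK-293T with siNegative and at 393.3, 558.1 and 579.6 CPM with siHNRNPH1. Its log2 fold change was -0.31 (SE 0.03) in HEK-293T without replicate 1 and -0.70 (SE 0.04) in HT-1080, with edgeR adjusted p of 3.08e-09 and 4.94e-07. SRSF2, a nuclear speckle protein, gave -0.17 (SE 0.03) and -0.74 (SE 0.04), SRSF3 gave -0.15 (SE 0.03) and -0.77 (SE 0.05), and SRSF9 gave -0.15 (SE 0.03) and -0.26 (SE 0.05). With replicate 1 kept, SRSF9 was at 0.14 (SE 0.23) in HEK-293T, where that library stood at 332.7 CPM against 225.0 to 231.3 in the controls.

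**Figure D5:**
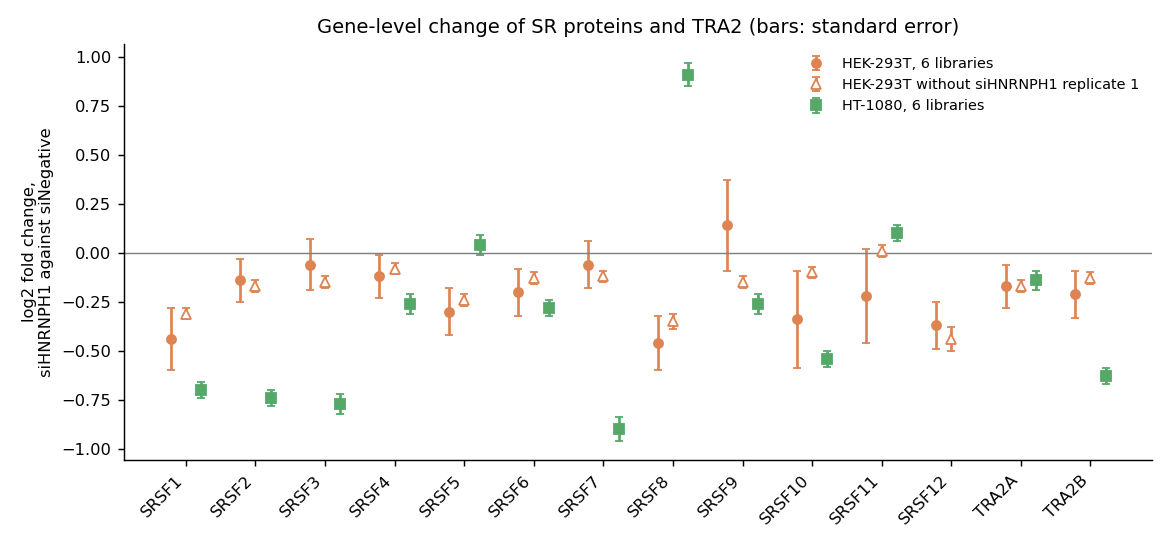
Log2 fold change of the SR protein genes and TRA2A and TRA2B, siHNRNPH1 against siNegative, with its standard error, for the 6 libraries of each line and for HEK-293T without siHNRNPH1 replicate 1 (SRSF12 was not tested in HT-1080). SRSF7 is lowest in HT-1080 at -0.90, and SRSF8 is the 1 called higher there, at 0.91. SRSF5 and SRSF11 lie at 0.04 and 0.10 in HT-1080 and were not called.

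Among the 13 other kinases, 4 passed in the same direction in both of these fits, close to the share of all genes. DYRK2 passed in opposite directions, at 0.40 in HEK-293T without replicate 1 and -0.28 in HT-1080. DYRK3, a kinase known to dissolve nuclear speckles in mitosis, gave -0.19 (SE 0.04) in that HEK-293T fit and -0.69 (SE 0.06) in HT-1080. HIPK2, a nuclear kinase, gave -0.48 (SE 0.03) and -0.36 (SE 0.11), PRPF4B, a kinase of the spliceosome, -0.15 (SE 0.03) and -0.36 (SE 0.06), and CDK12, which phosphorylates RNA polymerase II, 0.08 (SE 0.03) and 0.26 (SE 0.08). The HIPK2 groups overlapped in HT-1080, at 247.5, 172.9 and 238.9 CPM with siNegative and 180.5, 178.1 and 179.0 CPM with siHNRNPH1. With replicate 1 kept, DYRK3, HIPK2, PRPF4B and CDK12 stood at -0.35, -0.93, -0.46 and -0.26 in HEK-293T, and 0 of them passed, so the sign of CDK12 depended on that library. Among the phosphatases, which remove phosphates from SR proteins, the catalytic subunits PPP1CA and PPP1CC passed in both, at -0.25 (SE 0.04) and -0.26 (SE 0.06) for PPP1CA and -0.15 (SE 0.03) and -0.21 (SE 0.04) for PPP1CC. With replicate 1 kept, PPP1CA stood at 0.24 (SE 0.34) in HEK-293T. PPP1CB, the other catalytic subunit of that phosphatase, and AKT1, a kinase of CLK2, passed in opposite directions, at -0.08 and 0.41 for PPP1CB and -0.37 and 0.28 for AKT1, HEK-293T first. TNPO3, the importer of SR proteins, stood at 0.11 (SE 0.03, edgeR adjusted p = 0.00288) in HEK-293T without replicate 1 and at -0.05 (SE 0.05, adjusted p = 0.414) in HT-1080.

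The genes most like each kinase over the 12 libraries were found by the root mean square difference of their log2(CPM + 1) deviations from the siNegative mean of the line, among 10027 genes of at least 5 CPM in both lines. For CLK2 they were HOXB9 (difference 0.07) and PPP1R3E (0.08), with log2 fold changes of -1.25 and -1.23 in HEK-293T and -0.42 and -0.44 in HT-1080, against a median difference of 0.68 over all these genes. For SRPK1 they were SEPTIN7 (0.03) and SAV1 (0.04), and for SRPK2 ALKBH8 (0.02) and SCAF8 (0.03). For CLK1 they were FBXO9 (0.03) and TMEM38B (0.04), for CLK3 NRBP1 and PGM1 (0.04 each), and for CLK4 INO80 and MCPH1 (0.06 each). Leaving out replicate 1 of HEK-293T siHNRNPH1 kept both names for SRPK2, kept PGM1 for CLK3 and replaced the others. For CLK2 they became DVL2 (0.03) and TMEM214 (0.05).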

How the data were processed

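The authors deposited expected counts per transcript from RSEM, in 1 table per line, with genome build GRCh38.p13, per the submitters' processing notes. Aligner, versions, annotation release and strandedness are not given in the sources used here. The IsoSeq files list exon positions only. Counts were added up per gene, then rounded, all columns were matched to samples, and libraries were grouped by the labels' line and siRNA. Genes past edgeR's filterByExpr were scaled by TMM and tested with edgeR 4.0.16 (quasi-likelihood, robust), and usage with limma 3.58.1 diffSplice, in R 4.3.3. DESeq2 1.42.0 was an alternative. The threshold was 0.05 on BH-adjusted p. The gene-level and diffSplice fits were also run on simulated counts, with an outcome not given here. In these counts no library stood apart as replicate 1 of HEK-293T siHNRNPH1 does, so that case was not tested. The simulated gene-level changes were larger than that of any kinase here, so smaller changes were not tested either.

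The members and gene lists were chosen with earlier results of these data known. Named transcripts hold at least 10% of the gene in any group or passed the usage test in both lines, which none did, and 1 that passed in HT-1080 was added. Named list genes passed in both lines in the same direction, at most 4 per list, which no gene did with all libraries. Lists and nearest genes without HEK-293T siHNRNPH1 replicate 1 were added after seeing the data. List genes called in opposite directions in the lines, or with a called interaction, were named after their values were seen. The 2 nearest genes are given per member.

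IsoSeq models counted for a gene when most of their exonic bases lay in its RefSeq span (GRCh38.p14, used for names only) on its strand. The rule on bases left out 19 models that overlapped or lay near CLK2, 40 at CLK3 and 12 at SRPK2. Models left out for their strand are not in these counts. Reads shared with near-identical copies could be split by RSEM. The pseudogenes CLK2P1 and CLK3P2 held at most 8 and 1 counts per library. Overlapping RefSeq genes lie at CLK3 (CLK3-AS1), CLK4 (RN7SKP70), SRPK1 (1 lncRNA) and SRPK2 (7, KMT2E among them), and without strand their reads cannot be told apart. The lowest library count of a kinase was 441, for CLK4 in HT-1080. Replicates of a group differed by more than counting noise (chi-square of 1.78 to 852.0 for each degree of freedom). One of the line markers is not reported here.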

Additional observations from a re-analysis of the deposited data

Results flagged for a closer look

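The fall of CLK2 differed between the lines by a test of the difference itself: the log2 fold change was 0.61 higher, that is nearer to 0, in HT-1080 than in HEK-293T (SE 0.11, edgeR adjusted p = 0.00338, 12 libraries). CLK2 was lower in 3 of 3 siHNRNPH1 libraries in each line. HNRNPH2 also differed, by 0.92 (edgeR adjusted p = 0.00743), with the larger fall in HEK-293T. Of the 14 SR proteins, SRSF2, SRSF3, SRSF7 and TRA2B had lower log2 fold changes in HT-1080 than in HEK-293T, with differences of -0.68, -0.78, -0.92 and -0.49 (edgeR adjusted p = 0.00219, 0.00355, 8.82e-04 and 0.0116). SRSF8 differed the other way, by 1.30 (adjusted p = 1.08e-04). Of the phosphatases, import factors and partners, PPP2CA and SAFB differed by -0.71 and -0.80 (edgeR adjusted p = 8.64e-04 and 0.00514), and PPP1CB and AKT1 by 0.54 and 0.47 (0.0199 and 0.0456). SRSF3 stood at 520.6, 462.8 and 476.1 CPM with siHNRNPH1 in HEK-293T, against 490.9 to 506.8 CPM in controls, and at 182.1 to 188.8 CPM against 289.7 to 323.4 CPM in HT-1080. These genes were found by an interaction test in which 19.0% of all genes passed. The cause of these differences was not tested.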

How the results depend on the processing

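Counts over all genes in HEK-293T depended on the libraries. Genes changed in HEK-293T ranged from 0 to 12557 with 1 library left out (main count 1997), and were 1302 with no filter on low counts, 3461 with DESeq2 and 4551 with a spread shared over 12 libraries. Kinases changed there ranged from 0 to 4 of 6 with 1 library left out and were 2 with the shared spread. The replicate block, which the labels do not call a shared batch, gave 0 genes (4169 at an unadjusted p under 0.05) and 0 kinases (1) by edgeR in HEK-293T, and 2535 genes with an interaction. CLK2 in HEK-293T was at -1.18 with the block (edgeR adjusted p = 0.0688). Deviations of same-numbered libraries correlated at 0.03 to 0.12 in HEK-293T and 0.02 to 0.12 in HT-1080, and each siNegative library correlated best with the siHNRNPH1 library of its own number, a hint from the data only. The block changed no other count of kinases. In HT-1080, 2 to 4 kinases passed with 1 library left out, and 6237 genes passed with the shared spread. Genes with an interaction ranged from 2776 to 9535 and kinases from 1 to 4. Usage calls in HEK-293T ranged from 316 to 5296 genes and 1 to 6 kinases with 1 library left out, and were 666 and 0 with diffSpliceDGE. In HT-1080 they ranged from 1373 to 2025 genes. They were 550 and 0 there with diffSpliceDGE and 955 and 0 with arcsine shares (0 kinases at an unadjusted p under 0.05 in each). With transcripts of at least 5%, 2 kinases passed in HT-1080, SRPK1 and SRPK2.

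Signs that turned belonged to values not called with all libraries. Without HEK-293T siHNRNPH1 replicate 1, the log2 fold changes of CLK1, SRPK1 and SRPK2 in HEK-293T were 0.05, 0.09 and 0.17, and the differences between lines of CLK1 and SRPK2 were -0.05 and -0.19. CLK1 was at 0.02 in HEK-293T with the shared spread, and SRPK2 at -0.01 in HT-1080 without siNegative replicate 2. With 1 library left out, CLK1, SRPK1 and SRPK2 reached -0.13, -0.20 and -0.25 at their lowest in HEK-293T, SRPK2 0.07 at its highest in HT-1080, and the differences of CLK4 and SRPK2 -0.15 and 0.20. The CLK4 difference was 0.06 with library size alone, 0.01 without HEK-293T siHNRNPH1 replicate 3 and 0.03 without HT-1080 siHNRNPH1 replicate 3. Library size alone moved the median interaction of all genes from -0.069 to 0.041, and that of CLK2 from 0.61 to 0.72. The CLK2 interaction passed under all alternatives run (0.57 to 0.72, edgeR adjusted p at most 0.0341). The IsoSeq shares at exon 4 moved within their intervals under the 3 alternatives run. The cause of each change was not tested. Where 1 library is left out of a group, the fit pools the spread over the libraries kept.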
